A study of Mus musculus with 12 samples.

Results

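Late erythroid maturation markers are genes that rise as red cell precursors complete their differentiation, here taken apart from the globin, heme synthesis and membrane skeleton genes. The list named 10 genes from general knowledge of the lineage, and 9 of them were matched to the 37991 genes of the count tables: Hemgn, Trim10, Trim58, Cldn13, Tspan33, Fam210b, Isg20, Ypel4 and Alox15. The remaining listed gene is not analysed here. Their levels were followed in MEL, an erythroleukemia line of the mouse that takes up red cell features when it is induced. The 12 libraries of polyadenylated RNA fall into 4 groups of 3. FL is the LDB1 knockdown carrying a full-length Ldb1 construct, delta45 is the knockdown carrying an Ldb1 delta 4/5 construct, KD is the LDB1 knockdown alone, and control is induced wild-type MEL. FL and delta45 therefore both carry the knockdown as well. The sources used here do not name the inducing agent, its duration, the knockdown method or the number of clones, nor do they say whether replicates are separate cultures, so p-values measure the spread between these libraries, which may be technical.

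LDB1 is an adaptor that binds DNA through partners such as GATA1, TAL1 and LMO2, and it is known for joining distant enhancers to the promoters of erythroid genes. The markers do different jobs as a precursor matures. Hemgn encodes hemogen, a nuclear protein of blood precursors. Trim10 and Trim58 encode RING finger proteins of the tripartite motif family, and mouse Trim58 directs the breakdown of the dynein motor around the time of enucleation. Cldn13 encodes a claudin and Tspan33 a tetraspanin, both membrane proteins. Fam210b encodes a mitochondrial protein that takes part in heme production. Isg20 encodes an RNA exonuclease that interferon also induces. Ypel4 belongs to the yippee family of small zinc-binding proteins. Alox15 encodes a lipoxygenase that acts on organelle membranes in reticulocytes.

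The stretch upstream of the start site is shown for some of the markers that held a match to a GATA, E-box or KLF1 motif. GATA1 and TAL1 are partners of LDB1, which the comparisons alter. Other markers with a match are not shown, among them Ypel4 with 4 KLF1 matches. The supplied RefSeq table (GRCm38.p6) matched 7 of the 9 markers with 9 start sites, and the window was the 250 bases before each start. Letters searched on both strands were AGATAA or TGATAA for GATA factors, CAGNTG for the E-box bound by TAL1 with E proteins, and CCNCNCCC for KLF1. In Hemgn (chr4:46404184-46404433, minus strand) and in the Isg20 start listed as number 3 (chr7:78913985-78914234, plus strand), capitals mark an E-box followed after 7 bases by a GATA match. In Trim10 (chr17:36869324-36869573, plus strand) capitals mark the GATA match, read on the opposite strand, and in Fam210b (chr2:172345327-172345576, plus strand) the KLF1 matches. All are printed 5′ to 3′ along the gene.
Hemgn: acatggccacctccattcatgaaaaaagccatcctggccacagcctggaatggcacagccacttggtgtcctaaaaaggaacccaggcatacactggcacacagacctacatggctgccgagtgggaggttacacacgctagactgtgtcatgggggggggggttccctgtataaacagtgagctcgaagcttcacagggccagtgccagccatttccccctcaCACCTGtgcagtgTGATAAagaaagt
Isg20, start 3: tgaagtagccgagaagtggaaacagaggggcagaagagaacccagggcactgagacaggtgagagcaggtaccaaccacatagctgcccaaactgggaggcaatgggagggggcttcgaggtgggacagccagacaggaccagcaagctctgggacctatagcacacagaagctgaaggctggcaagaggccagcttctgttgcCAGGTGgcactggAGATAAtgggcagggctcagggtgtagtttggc
Trim10: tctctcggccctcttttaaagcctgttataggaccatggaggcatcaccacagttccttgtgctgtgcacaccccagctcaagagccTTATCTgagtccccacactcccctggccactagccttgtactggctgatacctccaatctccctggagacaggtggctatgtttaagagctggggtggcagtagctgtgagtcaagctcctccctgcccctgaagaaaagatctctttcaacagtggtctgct
Fam210b: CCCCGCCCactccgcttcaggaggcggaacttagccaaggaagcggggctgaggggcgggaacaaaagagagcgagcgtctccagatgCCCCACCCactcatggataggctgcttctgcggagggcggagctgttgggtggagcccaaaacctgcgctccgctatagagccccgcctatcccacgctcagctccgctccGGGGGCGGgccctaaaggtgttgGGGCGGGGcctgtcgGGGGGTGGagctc

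A GATA match lay in 3 of the 9 marker promoters, against 16.6% of all 32851 promoters of the table. The E-box was found in 6 of the 9, against 44.8% of all, and the KLF1 letters in 6 of the 9, against 45.9% of all. The letters of the interferon response element were found in 0 of the 9, against 2.98% of all. The KLF1 matches of Hemgn are overlapping reads of a single run of G. An E-box followed by a GATA match at 5 to 12 bases was searched after the sequences had been seen. It occurred in 2 of the 9 marker promoters and in 0.393% of all promoters. A match is a description of letters and no evidence of binding.

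Gene reads per library ranged from 8783970 to 20464959. Ldb1, the targeted gene, was first checked, and it had 3694, 3408 and 3207 CPM in FL, 750, 781 and 764 CPM in delta45, 159, 132 and 97.0 CPM in KD, and 742, 772 and 637 CPM in control. Each KD library lay below each control library, and FL lay above every other library. CPM is the usual depth-scaled unit, a gene's count relative to all gene reads of its library, here after TMM scaling. All 8 erythroid identity genes examined (Slc4a1, Alas2, Epb42, Rhag, Tfrc, Klf1, Gata1, Epor) had reads in every group, and their summed level was 14107 to 14709 CPM in FL, 3674 to 4117 CPM in delta45, 2040 to 3405 CPM in KD and 3899 to 4738 CPM in control. Of the 8, 5 were called higher in FL than in KD, 7 in FL than in delta45 and 5 in FL than in control, and 4 were called lower in KD than in control. Delta45 against KD gave 3 higher and 3 lower, and delta45 against control 1 and 3. Opposite moves lie behind the similar sums of delta45 and control. Tfrc was higher (mean 2118 CPM in delta45 against 849 CPM in control). Alas2 (305 against 1630 CPM), Slc4a1 (1.99 against 57.5 CPM) and Gata1 (473 against 827 CPM) were lower. For these counts and those of the other lists, the shares of all genes called are given below by comparison. FL against control had 1 lower with library totals, with no count filter, in the fit of only these groups and at an unadjusted p under 0.05, and KD against control had 2 higher without KD replicate 1. Among markers of other lineages, the 10 megakaryocyte genes summed to 2637 to 2779 CPM in FL, 138 to 158 CPM in delta45, 761 to 816 CPM in KD and 839 to 939.8 CPM in control, mostly from Itga2b and Pf4. Of these, Gp6 was at 0 in delta45 and in KD, and Ppbp in control. The sums hide opposite moves, since of the 8 tested 3 were called higher and 3 lower in FL than in control. In KD against control 2 were called higher and 3 lower. There mean Pf4 was 484 CPM in KD against 72.1 CPM in control, and mean Itga2b 266 against 774 CPM. The 15 myeloid genes summed to 27.1 to 30.7 CPM in FL, 11.8 to 14.2 CPM in delta45, 56.0 to 97.4 CPM in KD and 115 to 141 CPM in control, with Epx at 0 in every group. The 9 mast and basophil genes stayed at or under 10.2 CPM and the 10 lymphoid genes at or under 45.7 CPM in every library, with Mcpt8, Ms4a2, Tpsb2, Prss34, Pax5 and Cd8a at 0 throughout. The part of these other lineages in the results that follow was not tested, and in bulk RNA fewer cells of a type and less RNA per cell cannot be told apart.

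The KD libraries were not alike, and this touches every comparison that uses them. On a list of 26 tested interferon response genes, the mean log2 level relative to control was -2.0 in KD replicate 1, 1.66 in replicate 2 and 2.90 in replicate 3. It lay between -2.54 and -2.36 in FL, between -2.95 and -2.85 in delta45 and between -0.26 and 0.22 in control. Each result resting on KD is therefore also given without single KD libraries where the call changes. Values without both KD replicates 2 and 3 set a single KD library, kept after its values were seen, against a group. Any call in them assumes that this library varies like the other groups, so they describe that library and are no test of the knockdown.

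Across the 8 markers with enough reads to test, FL gave the highest mean for 6 of them. The exceptions were Tspan33 (highest in control) and Isg20 (highest in KD). The share of all tested genes with their highest mean in FL is not given here, so this count only describes the markers. The markers did not move as a block in KD. Hemgn, Fam210b and Tspan33 were called lower than in control, while Trim10, Isg20 and Ypel4 were called higher. For Trim10 and Isg20 the KD libraries overlapped control, with KD replicate 1 below every control library. The calls of Trim10 and Isg20 were lost when certain single libraries were left out. Calls below are edgeR quasi-likelihood tests with Benjamini-Hochberg adjustment over all 12837 tested genes, at an adjusted p under 0.05, and log2 changes carry their SE. With 3 libraries a side, the smallest two-sided p that exact permutation allows is 0.1.

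**Figure D1:**
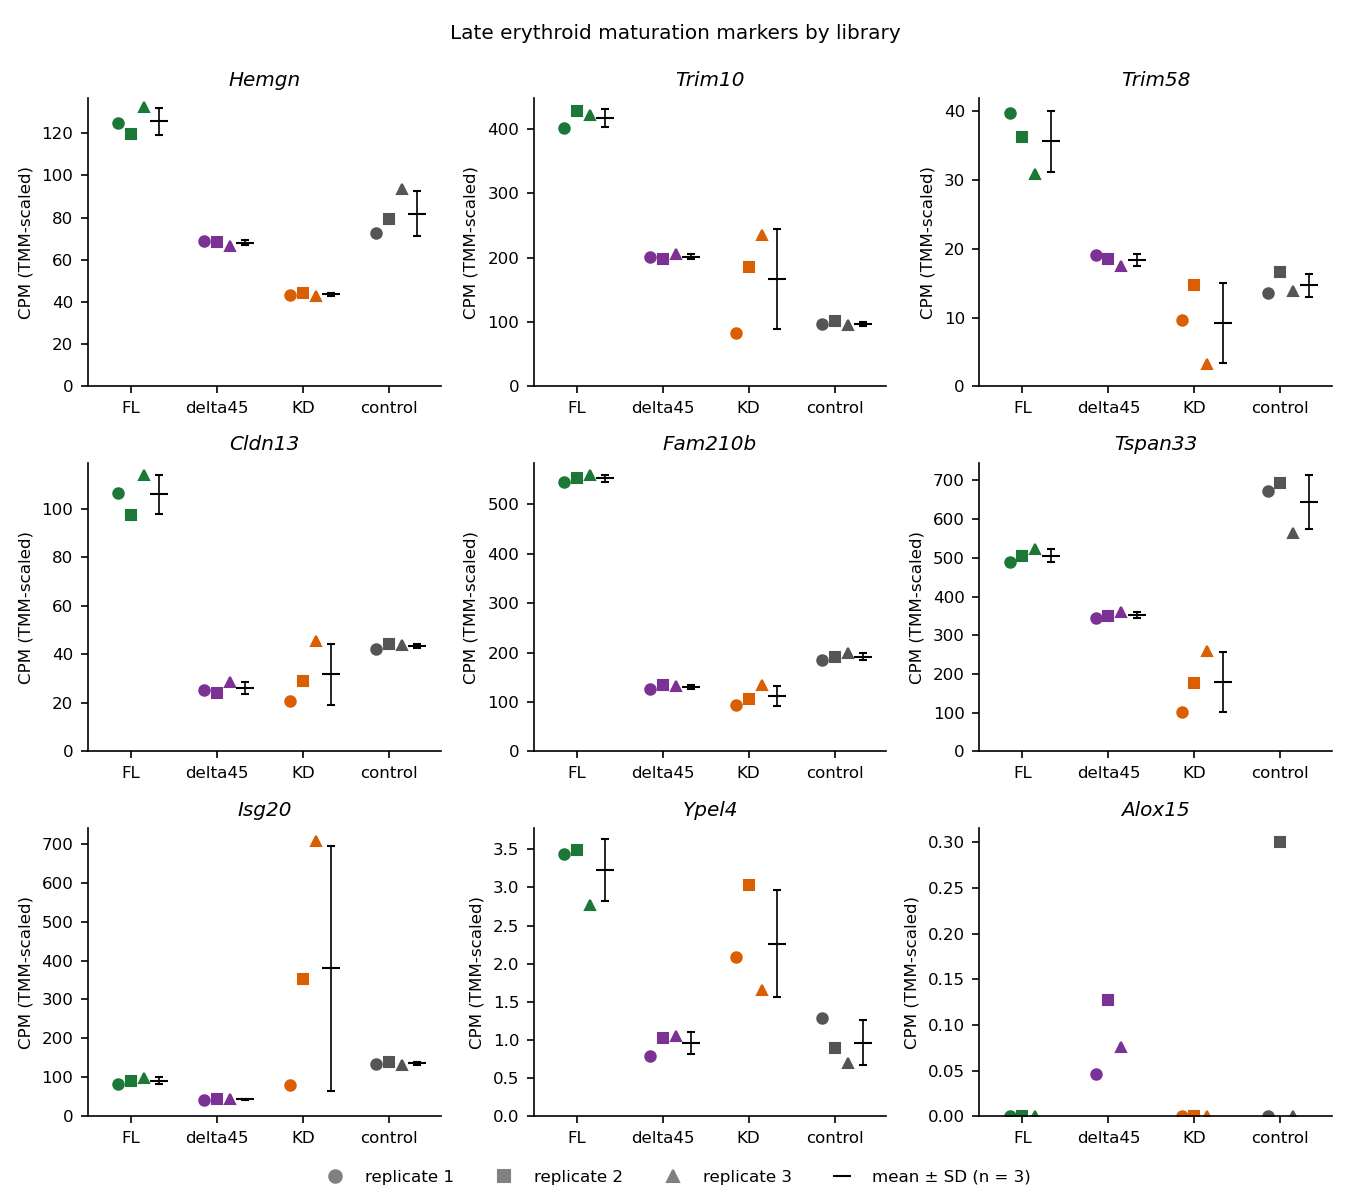
TMM-scaled CPM of each of the 9 matched markers (linear axes from 0) in the 12 libraries, by group. Symbols are replicates and the bar beside them is the mean ± SD of 3 libraries (not drawn for Alox15, which had 7 reads in all). FL lies above the other groups for Hemgn, Trim10, Trim58, Cldn13 and Fam210b, and the KD replicates spread widely for Trim10, Trim58, Isg20 and Tspan33.

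Hemgn (ENSMUSG00000028332) had 125, 120 and 132 CPM in FL, 69.0, 68.4 and 66.6 CPM in delta45, 43.5, 44.3 and 43.0 CPM in KD, and 72.6, 79.4 and 93.5 CPM in control. The 4 groups did not overlap at all, in the order FL, control, delta45, KD. It fell 1.88-fold in KD against control (log2 -0.91 ± 0.106, edgeR adjusted p 1.86e-05) and was 2.88-fold higher in FL than in KD (1.53 ± 0.107, adjusted p 1.39e-07). The delta 4/5 construct was accompanied by a 1.56-fold higher level than in KD (0.64 ± 0.105, adjusted p 0.000222), and FL exceeded delta45 1.85-fold (0.88 ± 0.104, adjusted p 1.11e-05). FL also stood above control (0.62 ± 0.104, adjusted p 0.000223). The deficit of delta45 against control was small (-0.27 ± 0.104, adjusted p 0.037), and its call was lost without control replicate 2 (adjusted p 0.054), without control replicate 3 (log2 -0.15, adjusted p 0.212), and without any single delta45 library (adjusted p 0.0912 to 0.138). Hemgn was the steadiest of the markers in KD, where its highest library was 1.03 times its lowest, against a median of 1.46 over all tested genes.

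Trim10 (ENSMUSG00000073400), whose mouse product is needed for terminal red cell differentiation in culture, had 401, 428 and 421 CPM in FL, 201, 198 and 205 CPM in delta45, 82.4, 185 and 234 CPM in KD, and 96.8, 101 and 95 CPM in control. FL was clear of every other group and delta45 was clear of control, whereas KD ran from below control to above delta45. FL exceeded control 4.27-fold (2.09 ± 0.264, edgeR adjusted p 1.91e-05), KD 2.49-fold (1.32 ± 0.257, adjusted p 0.000742) and delta45 2.07-fold (1.05 ± 0.255, adjusted p 0.00363). It was 2.06-fold higher in delta45 than in control (1.05 ± 0.257, adjusted p 0.00303). KD against control was called higher (0.78 ± 0.257, adjusted p 0.0231), yet the call was lost without KD replicate 2 (log2 0.69, adjusted p 0.0719), without KD replicate 3 (0.45, adjusted p 0.12) and without any single control library (adjusted p 0.0514 to 0.0652). With KD replicates 2 and 3 both left out the change was -0.26, the direction of KD replicate 1. Between delta45 and KD the change was 0.27 ± 0.254 (adjusted p 0.371) and was not called, though it reached 0.60 (adjusted p 0.0411) without KD replicate 3.

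Trim58 (ENSMUSG00000037124) had 39.8, 36.2 and 30.9 CPM in FL, 19.1, 18.5 and 17.5 CPM in delta45, 9.68, 14.8 and 3.24 CPM in KD, and 13.6, 16.6 and 13.9 CPM in control. Again FL stood apart from all other libraries, delta45 lay just above control, and KD overlapped control. The gene was 3.89-fold higher in FL than in KD (1.96 ± 0.343, edgeR adjusted p 0.000327) and 2.42-fold higher than in control (1.28 ± 0.331, adjusted p 0.00484). FL exceeded delta45 by 0.95 ± 0.323 (adjusted p 0.0242), a call lost without FL replicate 1 (adjusted p 0.0732), FL replicate 2 (0.0587) or any single delta45 library (0.0502 to 0.0644). The level in delta45 was 2.01-fold that in KD (1.01 ± 0.340, adjusted p 0.0209). This call was lost in 2 of 14 alternative fits, among them that without delta45 replicate 1 (adjusted p 0.0506). The highest adjusted p over these fits was 0.0904. KD against control was -0.68 ± 0.345 (adjusted p 0.116), called when KD replicate 2 was left out (-1.16, adjusted p 0.0124). Delta45 against control was 0.32 ± 0.329 (adjusted p 0.405).

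A list of 9 partner genes was read beside the markers, made of dynein subunits as the substrate of mouse Trim58, Adam10 as the partner of Tspan33, and the adult globin genes. It gave 2 higher and 5 lower in KD against control, 8 higher and 0 lower in FL against KD, 3 and 1 in delta45 against KD, 6 and 0 in FL against delta45, 8 and 0 in FL against control, and 5 and 4 in delta45 against control. The counts of 0 were also 0 at an unadjusted p under 0.05 and in DESeq2, but with library totals 1 gene was lower in FL than in KD and 1 in FL than in delta45, as 1 was in FL against delta45 without FL replicate 1 and in the fit of only these groups. The higher count in KD against control was 1 without control replicate 1 or 2 and in the fit of only these groups. Dync1h1, the dynein heavy chain, averaged 695 ± 113 CPM in FL, 860 ± 15.6 CPM in delta45, 741 ± 149 CPM in KD and 227 ± 11 CPM in control (SD, n = 3 each). It was higher in KD than in control (log2 1.71 ± 0.149, edgeR adjusted p 1.92e-06), in FL than in control (1.62 ± 0.149, adjusted p 1.19e-06) and in delta45 than in control (1.92 ± 0.150, adjusted p 2.43e-07). All 3 groups that carry the knockdown stood above control for Dync1h1, while for Trim58 only FL was called above control. Both are RNA levels, which do not show the breakdown of dynein protein.

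Cldn13 (ENSMUSG00000008843), a rodent claudin found on red cell precursors, had 106, 97.6 and 114 CPM in FL, 25.4, 23.9 and 28.7 CPM in delta45, 20.9, 28.8 and 45.4 CPM in KD, and 42.4, 44.1 and 43.7 CPM in control. FL was again separate from every other library, and delta45 was separate from control and below it. It was 4.08-fold higher in FL than in delta45 (2.03 ± 0.211, edgeR adjusted p 3.62e-06), 3.35-fold higher than in KD (1.74 ± 0.210, adjusted p 1.58e-05) and 2.44-fold higher than in control (1.29 ± 0.207, adjusted p 0.000148). It fell 1.67-fold in delta45 against control (-0.74 ± 0.208, adjusted p 0.00706). KD against control gave -0.45 ± 0.208 (adjusted p 0.0862), with KD replicate 3 above every control library. Without KD replicate 3 this difference was called (-0.81, adjusted p 0.000561), as it was in DESeq2 (-0.49, adjusted p 0.0472). Delta45 against KD was -0.29 ± 0.209 (adjusted p 0.251). That difference was called lower without KD replicate 1 (-0.50, adjusted p 0.0146) and turned to 0.07 without KD replicate 3.

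Tspan33 (ENSMUSG00000001763), a tetraspanin that escorts the protease ADAM10 to the membrane, had 490, 504 and 522 CPM in FL, 345, 351 and 359 CPM in delta45, 103, 177 and 259 CPM in KD, and 674, 694 and 564 CPM in control. Here the order was control, FL, delta45, KD, with no overlap between any pair of groups. The fall in KD was 3.59-fold against control (-1.84 ± 0.238, edgeR adjusted p 4.11e-05). FL was 2.82-fold above KD (1.49 ± 0.236, adjusted p 0.000146) and delta45 1.96-fold above KD (0.97 ± 0.233, adjusted p 0.00309). Delta45 remained 1.83-fold below control (-0.87 ± 0.232, adjusted p 0.005). FL against control was not called (-0.35 ± 0.230, adjusted p 0.207), nor was FL against delta45 (0.52 ± 0.231, adjusted p 0.0731). Both of these were called when the fit held only the groups compared (adjusted p 0.00983 and 3.35e-05), where the KD libraries do not enter. Under library totals in place of TMM, FL fell below control (-0.57, adjusted p 0.0333).

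Adam10 had 1195, 1014 and 1010 CPM in FL, 803, 672 and 642 CPM in delta45, 314, 232 and 258 CPM in KD, and 348, 348 and 585 CPM in control. FL and delta45 both lay above every KD and control library. It was higher in FL than in KD (2.0 ± 0.199, edgeR adjusted p 3.02e-06) and in delta45 than in KD (1.4 ± 0.196, adjusted p 6.57e-05). Unlike Tspan33, Adam10 was also called higher in FL than in control (1.33 ± 0.195, adjusted p 7.13e-05).

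Fam210b (ENSMUSG00000027495) had 545, 553 and 559 CPM in FL, 126, 134 and 133 CPM in delta45, 94.5, 106 and 134 CPM in KD, and 185, 191 and 199 CPM in control. FL sat far above all other libraries, control was above both remaining groups, and delta45 and KD overlapped. The gene was 4.95-fold higher in FL than in KD (2.31 ± 0.122, edgeR adjusted p 1.39e-08), 4.23-fold higher than in delta45 (2.08 ± 0.121, adjusted p 1.72e-08) and 2.88-fold higher than in control (1.53 ± 0.119, adjusted p 2.64e-07). It fell 1.72-fold in KD (-0.78 ± 0.118, adjusted p 0.00014) and 1.47-fold in delta45 (-0.55 ± 0.117, adjusted p 0.00109), each against control. Delta45 against KD was 0.23 ± 0.117 (adjusted p 0.107), and it was called without KD replicate 3 (0.38, adjusted p 0.00309).

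Isg20 (ENSMUSG00000039236) had 82.4, 92.1 and 99.4 CPM in FL, 42.8, 45.3 and 43.6 CPM in delta45, 81.2, 352 and 707 CPM in KD, and 135, 140 and 132 CPM in control. The KD libraries alone covered 8.70-fold, with replicate 1 below control and replicates 2 and 3 far above it, while FL, delta45 and control were each tight and separate. It was called 2.80-fold higher in KD than in control (1.48 ± 0.482, edgeR adjusted p 0.0213). The call was lost without KD replicate 3 (0.67, adjusted p 0.169) and without any single control library (adjusted p 0.0541 to 0.061). With KD replicate 1 as the only KD library the change was -0.76. FL was 4.16-fold lower than KD (-2.05 ± 0.492, adjusted p 0.00307), but the change was 0.18 with KD replicate 1 as the only KD library. The level in delta45 was 8.65-fold lower than in KD (-3.11 ± 0.513, adjusted p 0.000229) and 3.10-fold lower than in control (-1.63 ± 0.490, adjusted p 0.0104). FL against delta45 (1.06 ± 0.485, adjusted p 0.0837) and FL against control (-0.57 ± 0.478, adjusted p 0.318) were not called, though neither pair of groups overlapped. In fits of only the groups compared both were called (adjusted p 7.12e-07 and 0.000387).

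The interferon response gene Isg15 ran beside Isg20, with 13.1, 17.3 and 16.0 CPM in FL, 6.28, 6.83 and 6.58 CPM in delta45, 20.6, 576 and 2109 CPM in KD, and 40.4, 53.5 and 54.8 CPM in control. KD replicates 2 and 3 stood far above the rest for both genes. Of the 26 tested interferon response genes, 17 were called higher and 0 lower in KD than in control, and 19 and 0 passed an unadjusted p under 0.05 (16 and 0 in DESeq2). Leaving out a library moved the higher count to 26 (KD replicate 1), 5 with 1 lower (KD replicate 3), 7 (control replicate 1) or 10 (control replicate 2). In the fit of only these groups it was 5. All 26 were lower in FL than in KD and all 26 in delta45 than in KD, though KD replicate 1 had a list level of -2.0, near that of FL. Against control, 0 were higher and 16 lower in FL (10 lower without FL replicate 3), and 0 were higher and 18 lower in delta45, with 0 higher in both also at an unadjusted p under 0.05 and in DESeq2. In delta45 against control 1 was higher with no count filter, with the replicate block and in the fit of only these groups. In KD replicate 3, which had the highest interferon list level, Trim10, Cldn13, Tspan33, Fam210b and Isg20 were at their highest among the KD libraries, and Hemgn, Trim58 and Ypel4 at their lowest. Whether the interferon response has a part in any of these levels was not tested.

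**Figure D2:**
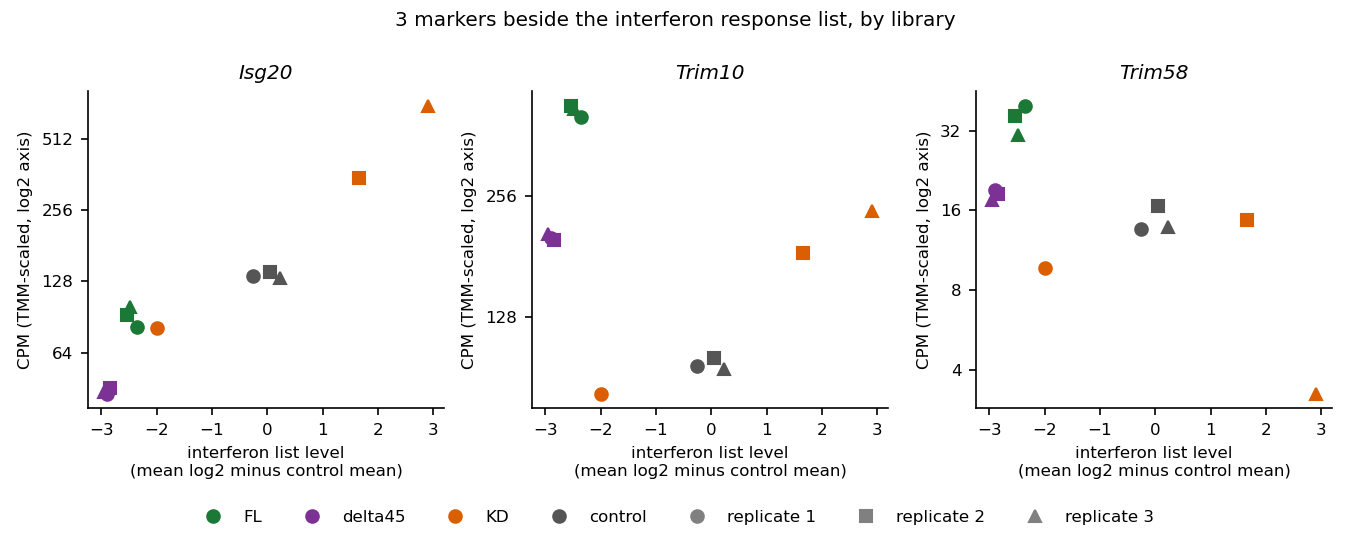
CPM of Isg20, Trim10 and Trim58 (log2 axes) against the interferon list level, the mean log2 CPM of 26 genes minus the control mean, with 1 point per library. Isg20 is high in KD replicates 2 and 3, where the list level is 1.66 and 2.90, while Trim58 is at its lowest in KD replicate 3.

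Ypel4 (ENSMUSG00000034059) was covered by 267 reads over all 12 libraries. Its levels were 3.43, 3.48 and 2.76 CPM in FL, 0.796, 1.02 and 1.06 CPM in delta45, 2.09, 3.04 and 1.66 CPM in KD, and 1.28, 0.902 and 0.705 CPM in control. FL and KD overlapped and lay above delta45 and control, which overlapped each other. It was higher in KD than in control (1.25 ± 0.329, edgeR adjusted p 0.0066), in FL than in control (1.77 ± 0.320, adjusted p 0.000382) and in FL than in delta45 (1.75 ± 0.304, adjusted p 0.000322). It was lower in delta45 than in KD (-1.23 ± 0.312, adjusted p 0.00438). FL against KD was 0.51 ± 0.288 (adjusted p 0.143), called only without KD replicate 2 (0.82, adjusted p 0.0355), and delta45 against control was 0.02 ± 0.345 (adjusted p 0.957).

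The other yippee genes tested were Ypel1, Ypel2, Ypel3 and Ypel5. Ypel3 fell in KD against control (-1.26 ± 0.190, edgeR adjusted p 0.000141), was lower still in delta45 than in KD (-2.07 ± 0.199, adjusted p 3.15e-06) and was higher in FL than in delta45 (2.85 ± 0.203, adjusted p 1.03e-07). Ypel2 also fell in KD (-1.55 ± 0.121, adjusted p 7.58e-07), where Ypel4 was called higher, as did Ypel1 (-0.71 ± 0.220, adjusted p 0.0171), while Ypel5 was not called (-0.31 ± 0.169, adjusted p 0.144). Ypel2 (1.56 ± 0.122, adjusted p 3.48e-07), Ypel3 (0.78 ± 0.189, adjusted p 0.00325) and Ypel5 (0.43 ± 0.169, adjusted p 0.0455) were higher in FL than in KD. Each of these was also higher in FL than in delta45, whereas Ypel1 was lower there (-1.03 ± 0.217, adjusted p 0.00135).

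Alox15 (ENSMUSG00000018924) had 0 reads in FL, 1, 2 and 1 reads in delta45, 0 reads in KD, and 0, 3 and 0 reads in control, and was not tested. Counting error over a group of 0 reads allows up to 0.0746 CPM in FL and 0.0907 CPM in KD. Both limits are on library totals, without the TMM scaling of the other CPM values. Among the lipoxygenase relatives, Alox5 was lower in KD than in control (-1.52 ± 0.220, edgeR adjusted p 0.000101) and higher in FL than in KD (1.79 ± 0.222, adjusted p 1.98e-05) and than in delta45 (3.50 ± 0.238, adjusted p 6.8e-08). No difference between groups in Alox15 was detectable at this depth.

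Read by comparison, the knockdown against control split the markers evenly: of 8 tested, 3 were called higher (Trim10, Isg20, Ypel4) and 3 lower (Hemgn, Fam210b, Tspan33), with a median log2 change of -0.57 beside 0.02 over all genes. Of all tested genes, 49.7% were called in this comparison, 25.6% higher and 24.1% lower. Only Ypel4 lay wholly above control, while Hemgn, Fam210b and Tspan33 lay wholly below. Over all tested genes 25.5% lay wholly above control and 25.3% wholly below. The count of higher calls was 1 without KD replicate 3 and without any single control library, and with KD replicate 1 as the only KD library, its spread taken from the other groups, it was 1 higher and 6 lower.

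With the full-length construct against the knockdown alone, 6 of the 8 were called higher, 1 lower (Isg20) and Ypel4 was not called. The median was 1.51, beside -0.06 over all genes, and 58.0% of all genes were called, 26.3% higher and 31.7% lower. With 6 of 8 called higher, the share lay above the 26.3% of all genes. With KD replicate 1 as the only KD library the count of lower calls was 0. These calls share the KD libraries with the knockdown comparison.

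The delta 4/5 construct against the knockdown alone gave 3 higher (Hemgn, Trim58, Tspan33) and 2 lower (Isg20, Ypel4), with a median of 0.25 beside -0.01 over all genes. Over all genes 59.9% were called, 29.2% higher and 30.7% lower, so the members' share of calls was near the background. Without KD replicate 3, and also with KD replicate 1 as the only KD library, 5 were called higher.

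FL against delta45, the comparison of the constructs, gave 6 higher and 0 lower, and in each of the 8 markers every FL library was above every delta45 library, as in 33.7% of all tested genes. By count, 52.8% of all genes were called, 25.8% higher and 27.0% lower. The median was 1.05, beside -0.01 over all genes. The markers called were Hemgn, Trim10, Trim58, Cldn13, Fam210b and Ypel4, and Isg20 and Tspan33 gave the values above. At an unadjusted p under 0.05 it was 8 higher and 0 lower, and in DESeq2 7 higher and 0 lower. Ldb1 itself was higher in FL than in delta45 (log2 2.17 ± 0.158, edgeR adjusted p 1.25e-07). The kind of construct and the level of Ldb1 therefore differ together between these groups and cannot be told apart.

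Both construct groups were also set against control. FL against control gave 6 higher (Hemgn, Trim10, Trim58, Cldn13, Fam210b, Ypel4) and 0 lower, as it did at an unadjusted p under 0.05 and in DESeq2, with 59.3% of all genes called, 28.1% higher and 31.2% lower, and a median of 1.28 beside -0.01 over all genes. Delta45 against control gave 1 higher (Trim10) and 5 lower (Hemgn, Cldn13, Isg20, Fam210b, Tspan33), with 64.4% of all genes called, 31.9% higher and 32.5% lower, and a median of -0.41 beside 0.01. Tspan33 and Isg20 lay below control in every FL library without being called. Of all tested genes, 36.1% lay wholly below control in FL. These 2 comparisons share the control libraries. With library totals in place of TMM, the median of all genes was -0.33 in FL against KD, -0.28 in FL against delta45 and -0.23 in FL against control. The share of calls that were higher was then 26.7%, 29.2% and 31.8%, against 45.4%, 48.8% and 47.4% with TMM. In each of these comparisons of FL, the markers called higher kept their direction under both scalings. The call of Trim58 in FL against delta45 was lost with library totals (0.68, edgeR adjusted p 0.104).

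**Figure D3:**
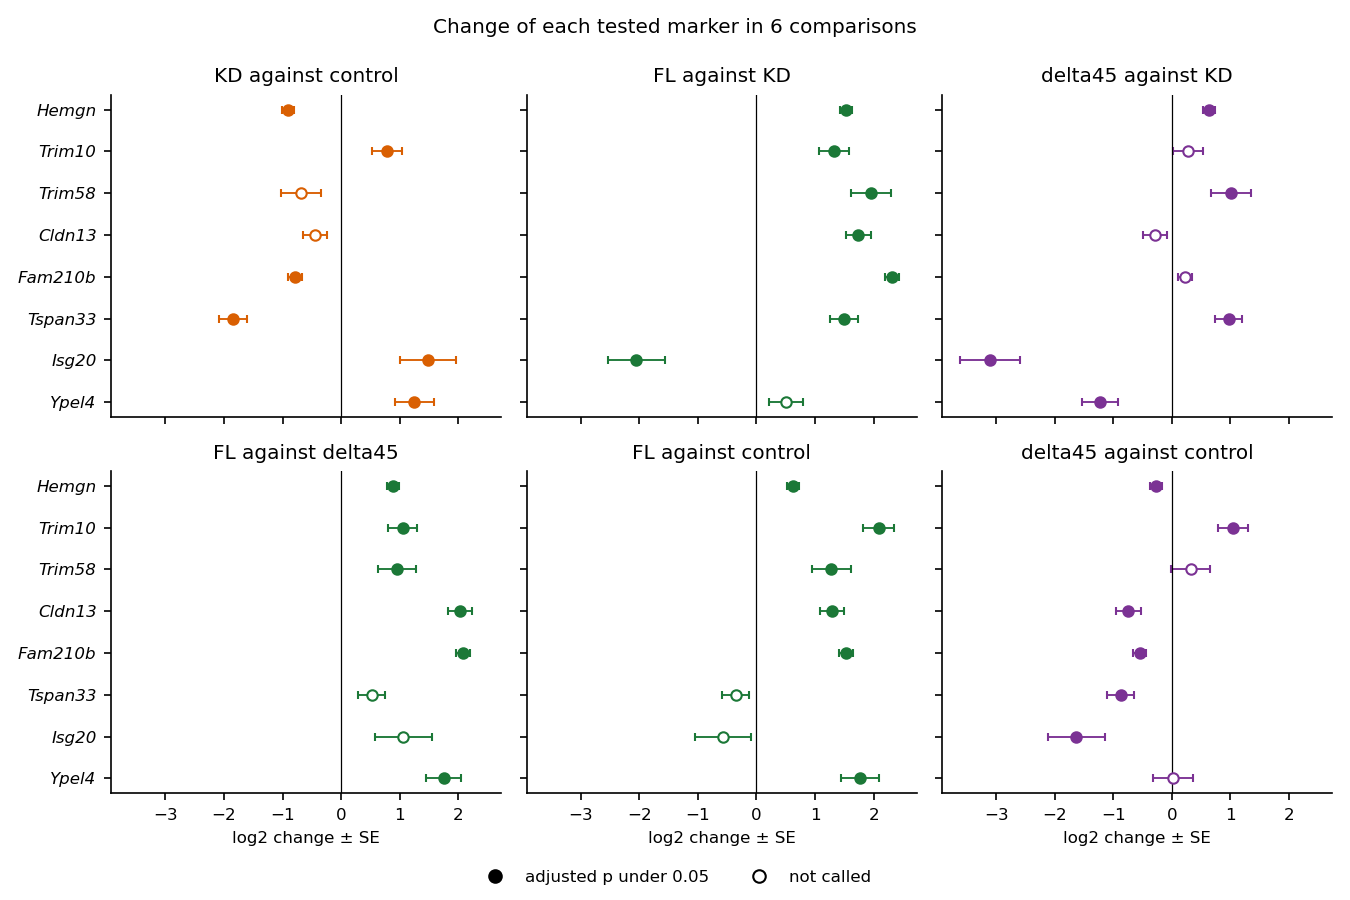
Log2 change ± SE of the 8 tested markers (rows) in the 6 comparisons (panels), with filled points called at an edgeR adjusted p under 0.05 and open points not called. In FL against delta45 all 8 changes lie above 0 and 6 are called, and Isg20 lies far below 0 in both comparisons of a construct with KD.

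A second list held 30 other genes known to act in maturing red cells, among them ubiquitin, autophagy and cell cycle genes. Like the markers, it was chosen with earlier results of these data known, so it is no independent check of them. In KD against control, 5 of the 30 were called higher and 13 lower (median -0.28), with Ulk1, an autophagy kinase, at -1.75 (edgeR adjusted p 1.92e-07), Mxi1, a MYC antagonist, at -1.49 (adjusted p 1.06e-06) and Rnf123, a ubiquitin ligase, at -1.24 (adjusted p 2.53e-06). The higher count was 8 without KD replicate 1, 3 without KD replicate 2 or any single control library, and 2 in the fit of only these groups. With KD replicate 1 as the only KD library it was 2 higher and 19 lower. In FL against KD, 23 were higher and 3 lower (median 0.83), with the smallest adjusted p for Car2, carbonic anhydrase 2 (2.45, adjusted p 2.13e-09), and Pim1, a kinase (2.99, adjusted p 3.47e-09). Delta45 against KD gave 9 higher and 8 lower (median 0.12), or 13 and 5 with KD replicate 1 as the only KD library. FL against delta45 gave 19 higher and 4 lower (median 1.04), with Pim1 at 2.85 (adjusted p 1.98e-09) and Mxi1 at 1.94 (adjusted p 3.56e-08). FL against control gave 20 higher and 7 lower (median 0.65), and delta45 against control 8 higher and 14 lower (median -0.42), with Mxi1 at -2.43 (adjusted p 8.27e-09).

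**Figure D4:**
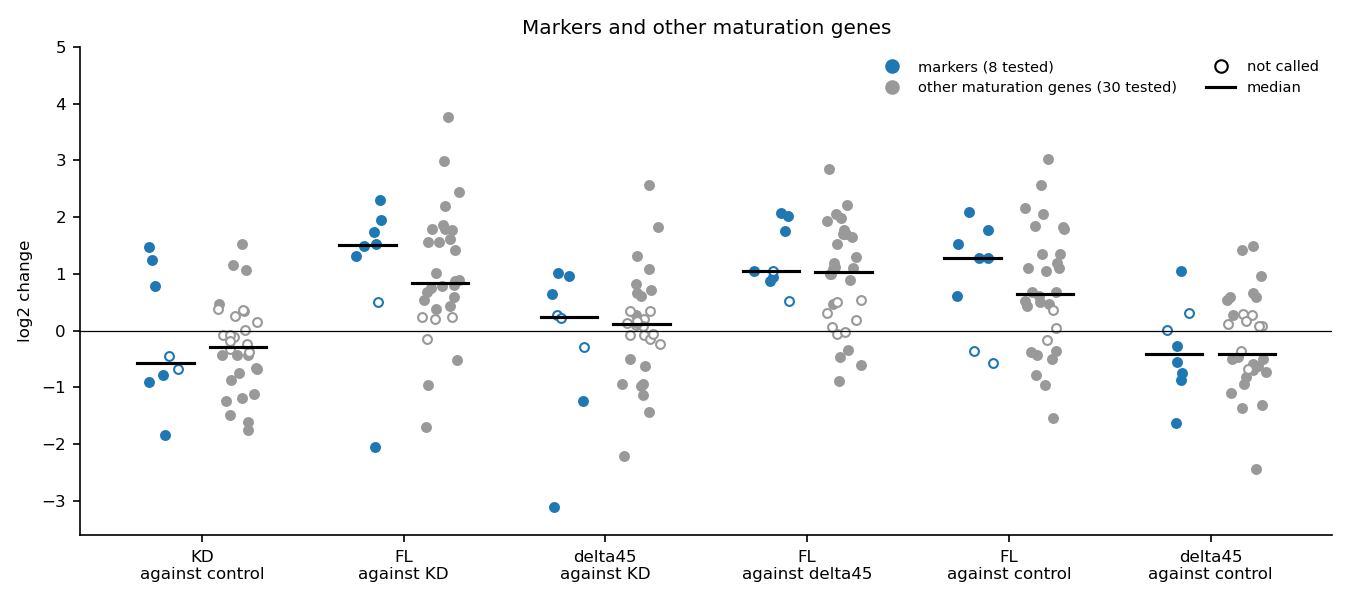
Log2 changes of the 8 tested markers and of 30 other maturation genes in the 6 comparisons, with open points not called and bars at the medians. In FL against delta45 the medians are 1.05 and 1.04, and in delta45 against control -0.41 and -0.42.

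Close relatives of the markers, genes of the same families, did not lean to a side. Of the 23 tested of 33, 6 were higher and 6 lower in KD against control (median 0.03), 9 and 7 in FL against KD (0.19), 8 and 8 in delta45 against KD (-0.36), 8 and 7 in FL against delta45 (-0.14), 7 and 6 in FL against control (0.15), and 7 and 10 in delta45 against control (0.16). Without FL replicate 1 the count in FL against KD was 6 higher and 4 lower, and without KD replicate 2 it was 9 and 4. It was 5 and 8 with library totals and 7 and 4 in the fit of only these groups, where KD against control gave 4 and 3. Tspan15, which like Tspan33 belongs to the tetraspanins that bind ADAM10, was lower in FL than in KD (-3.96 ± 0.462, edgeR adjusted p 1.19e-05). Trim39, a relative of Trim10, was higher in delta45 than in KD (1.51 ± 0.138, adjusted p 2.02e-06) but lower in FL than in delta45 (-0.66 ± 0.134, adjusted p 0.00104).

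Among 15 transcription factors and cofactors of red cell precursors, KD against control gave 6 higher and 2 lower. Gata2, which falls as precursors mature, was higher in KD than in control (2.19 ± 0.133, edgeR adjusted p 9.52e-08). Its mean was 58.7 CPM in FL, 32.85 CPM in delta45, 58.66 CPM in KD and 12.86 CPM in control. Every group that carries the knockdown thus lay above control, with FL as high as KD. FL against KD gave 6 higher and 3 lower, including Cbfa2t3, a corepressor of the LDB1 complex (1.90 ± 0.118, adjusted p 4.72e-08), and Gfi1b, a repressor (-1.83 ± 0.169, adjusted p 1.56e-06). FL against delta45 gave 8 higher and 2 lower, among them Nfe2 (1.93 ± 0.207, adjusted p 4.69e-06) and Gata2 (0.84 ± 0.124, adjusted p 8.46e-05). Delta45 against KD gave 2 higher and 5 lower (10 lower without KD replicate 1, and 4 higher and 3 lower with KD replicate 1 as the only KD library), FL against control 9 and 3, and delta45 against control 4 and 4 (7 and 4 with library totals).

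The genes flanking the markers were compared in the order of the RefSeq table. Of 18 flanking genes 9 had enough reads to be tested. Aurka, a mitotic kinase gene beside Fam210b, was lower in FL than in KD (-1.49 ± 0.128, edgeR adjusted p 7.79e-07) and than in delta45 (-1.52 ± 0.127, adjusted p 4.9e-07), where Fam210b was higher. Against control Aurka was lower in KD (-0.64 ± 0.123, adjusted p 0.000907) and in delta45 (-0.61 ± 0.123, adjusted p 0.000699), as Fam210b was. Anp32b beside Hemgn was also lower in FL than in KD (-0.80 ± 0.121, adjusted p 9.81e-05) and than in delta45 (-1.04 ± 0.121, adjusted p 9.52e-06), against the direction of Hemgn. Mettl27 beside Cldn13 was higher in FL than in delta45 (1.51 ± 0.171, adjusted p 7.48e-06) and than in KD (0.62 ± 0.167, adjusted p 0.00668), in the direction of Cldn13. No annotated gene overlapped any of the 9 markers in GENCODE M21, so the lack of strand information does not mix them with an annotated partner.

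Genes whose log2 CPM ran closest to a marker over the 12 libraries were taken by Pearson r, a description over points that share group and library. The nearest to Cldn13 was Nfe2 (r 0.990) and to Fam210b Rsu1 (r 0.993). Hemgn was nearest to Emilin2 (r 0.987), Trim10 to Cnppd1 (r 0.990) and Trim58 to Ttf1 (r 0.978). Isg20 was nearest to H2-T22 (r 0.987) and then Isg15 (r 0.985), both interferon-responsive genes. Tspan33 was nearest to Tpp1 (r 0.965) and Ypel4 to Irf2bpl (r 0.970).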

How the data were processed

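Polyadenylated RNA was measured in 12 libraries of induced MEL cells. The TruSeq RNA kit V2 was used, per the labels' protocols; it does not mark the strand. The authors deposited whole-number counts per Ensembl gene, not normalized. The submitters' processing notes name build mm9, HTSeq 0.5.3p9, TopHat 1.4.1, cutadapt 1.1 and DESeq 1.10.1, with no settings. The rows naming no gene entered neither library sizes nor tests. Reads aligned to several places were 42.3 to 47.1% of the tallied reads in FL, 38.7 to 39.2% in delta45, 42.7 to 48.5% in KD and 50.6 to 53.3% in control, so reads of near-identical genes, such as the globin copies, are partly lost.

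Symbols from a supplied table matched 32919 of 37991 identifiers. After filterByExpr (12837 genes kept) and TMM scaling, edgeR 4.0.16 under R 4.3.3 fitted 1 mean per group to all 12 libraries, with no block, by glmQLFit and glmQLFTest. Standard errors are the log2 change over the root of the F statistic. Alternatives were RLE scaling, library totals, other filters, DESeq2 1.42.0, fits of only the groups compared, a replicate block, and leaving out each library, and their effect is given at the end. Leaving out KD replicates 2 and 3 together was chosen after seeing the data. The test was checked on simulated counts. Replicate correlations of log2 CPM were 0.955 to 0.994, and replicates differed by more than counting noise in every group. Limits from a count of 0 are 3 reads over the gene reads of the group, without TMM scaling. They cover counting error only, as the reads have no molecular identifiers.

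The genes named were, by rule, all matched markers, Ldb1, up to 3 genes of each other list by adjusted p, the nearest gene on each side of a marker and the genes most like it. Genes named for 1 comparison may appear in another. Ypel3, Ypel2, Adam10 and Tspan15 were also given as relatives or partners of a marker. Isg15 was shown as an interferon gene. The markers and lists were chosen with earlier results of these data known. Start sites, promoter sequences and gene order came from RefSeq GRCm38.p6, a build other than the authors'. 1 listed gene and 4 markers of the cell type lists are not reported here, and the sums and counts of those lists leave them out.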

Additional observations from a re-analysis of the deposited data

How the results depend on the processing

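Counts of called markers were recomputed under each alternative, and 149 of 162 stayed within 1.5 times the main count. The exceptions in FL against control were 1 lower with library totals and 2 lower in the fit of only these groups, against 0. In KD against control the 3 higher became 1 in the fit of only these groups and 1 to 3 when a library was left out. Leaving out KD replicates 2 and 3 together, which leaves 1 KD library assumed to vary like the other groups, gave 1 higher and 6 lower there, 0 lower in FL against KD and 5 higher in delta45 against KD. Delta45 against KD ran from 2 to 5 higher when a library was left out, against 3. Delta45 against control gave 2 higher in the fit of only these groups, against 1. Of 648 log2 changes, 589 kept direction and call, 26 lost the call, 21 gained it and 12 changed sign. The sign changes were in Ypel4 in delta45 against control (main 0.02; -0.00 with RLE, -0.00 in DESeq2, and -0.18 to -0.00 when delta45 replicate 2 or 3 or control replicate 2 or 3 was left out, the values between being -0.02 and -0.01, and leaving out any 1 library gave up to 0.26), Trim10 in delta45 against KD (-0.03 without KD replicate 1, up to 0.60 without KD replicate 3), and Cldn13 in delta45 against KD (0.07 without KD replicate 3, down to -0.50 without KD replicate 1). With KD replicates 2 and 3 left out they were in Cldn13 in delta45 against KD (0.31), Trim10 (-0.26) and Isg20 (-0.76) in KD against control, and Isg20 in FL against KD (0.18). The cause was not tested. The call of Hemgn in delta45 against control was also lost with library totals (-0.21, edgeR adjusted p 0.0952) and with no count filter (adjusted p 0.116), and that of Trim58 in FL against delta45 with library totals (0.68, adjusted p 0.104).

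Same-numbered replicates correlated at -0.196 to 0.269 in their deviations from the group means, 9 of 18 pairs being over 0.1, and in 0 of the 6 comparisons were all pairs over it. In 10 of the 18 the best match was the same number. In the comparisons among FL, delta45 and KD, every same-numbered correlation was above 0 (0.031 to 0.248), while those with control ran from -0.196 to 0.269. The labels do not say that replicate numbers pair libraries, so the main fit held no block. Whether same-numbered libraries share a batch was not tested. With the replicate block, KD against control gave 4 lower markers in place of 3, Cldn13 being the one gained (-0.49, edgeR adjusted p 0.039), and each other comparison gave its main count. Ypel4 with 267 reads and Alox15 with 7 are limited by depth.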
